A study of Mus musculus with 12 samples.

Results

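The subject is a set of 53 genes of skeletal muscle, out of 28244 gene symbols with values, followed through the culture of mouse cartilage progenitors. The genes were chosen by name for their role in muscle, with earlier results of these same libraries in view, so their values and changes over the time points are given as a description and without p-values. They cover myogenic factors (6 genes), the thick filament (12), the thin filament (10), the Z disc, M band and titin (8), excitation-contraction coupling (6), the acetylcholine receptor with its kinase Musk (5), energy and oxygen supply (5) and protein turnover (1). All 53 were listed in the deposited values, and 50 passed the filter on low values, which kept genes that reached 1 on the log2 scale in 3 or more libraries.

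RNA was sequenced from pellets of primary progenitors freed by collagenase from the heads and condyles of femurs and tibiae of C57/BL6 pups aged 5 or 6 days. The D7 pellets had spent 7 days in chondrogenic medium, and the D8, D10 and D28 pellets had gone on in osteogenic medium for 1, 3 and 21 days. Each time point had 3 libraries, 12 in all. The cells were examined by flow cytometry for surface markers of blood, endothelial and skeletal progenitor cells, and no sort before pelleting is described. No label says whether replicates came from separate pups or cultures, so the errors here measure the spread between these samples, which may be technical. In bulk RNA, fewer cells of a type and less RNA per cell cannot be told apart.

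Skeletal muscle is built from myoblasts that leave the cell cycle and fuse into multinucleated fibres. Pax3 and Pax7 mark the precursors, Myf5 and Myod1 commit them, and Myog and Myf6 switch on the genes of the differentiated fibre. The fibre's sarcomeres slide thick filaments of myosin along thin filaments of actin, under the control of troponin, which responds to calcium released from the sarcoplasmic reticulum after acetylcholine reaches its receptor. Developing fibres use embryonic and perinatal myosins, cardiac actin and troponin isoforms and the gamma subunit of the receptor, and exchange these for adult isoforms as they mature.

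Values below are the deposited log2 of an equalized read count plus 1, which can be compared between time points for a gene but not between genes, because they are not divided by length. Where genes are compared, the scale is equalized reads per kilobase of the longest protein-coding transcript. A gene is called higher or lower when limma, run over the 17674 genes that passed the filter, gave an adjusted p under 0.05 and the log2 fold change was 1 or more in size.

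Regulatory sequence is shown for 3 genes with the largest distance between D7 and D28 means in their subgroups, a regulator (Myog), a receptor subunit (Chrna1) and a filament gene (Acta1). Each is the stretch of 250 bases before the RefSeq start, read 5′ to 3′ on the gene's strand from RefSeq sequence of GRCm38.p6. Capitals mark E-boxes, the sites of the myogenic factors (every CANNTG in Myog, only the CAGCTG form in Chrna1 and Acta1), and in Acta1 also a CArG box, the site of serum response factor.
Myog, + strand, chr1:134289754-134290003: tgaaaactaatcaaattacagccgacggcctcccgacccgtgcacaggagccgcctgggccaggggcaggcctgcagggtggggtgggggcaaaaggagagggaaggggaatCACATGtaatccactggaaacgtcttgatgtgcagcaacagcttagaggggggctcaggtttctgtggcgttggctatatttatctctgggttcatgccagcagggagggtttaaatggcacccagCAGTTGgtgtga
Chrna1, - strand, chr2:73580339-73580588: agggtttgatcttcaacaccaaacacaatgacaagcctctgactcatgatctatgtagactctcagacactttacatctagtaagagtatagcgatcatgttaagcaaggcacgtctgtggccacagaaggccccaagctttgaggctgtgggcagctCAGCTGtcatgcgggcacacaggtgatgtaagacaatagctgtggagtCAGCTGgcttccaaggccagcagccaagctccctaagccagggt
Acta1, - strand, chr8:123894776-123895025: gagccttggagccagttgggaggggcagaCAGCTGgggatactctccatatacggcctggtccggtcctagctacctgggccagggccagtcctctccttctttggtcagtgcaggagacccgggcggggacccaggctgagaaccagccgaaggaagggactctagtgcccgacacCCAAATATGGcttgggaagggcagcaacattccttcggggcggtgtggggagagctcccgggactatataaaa
In Myog the E-boxes begin at -138 and -12 from the start, in Chrna1 at -92 and -44, and in Acta1 the E-box begins at -221 and the CArG box at -73.

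RefSeq windows of 300 bases, 250 before to 50 after a start, were found for 42 of the 53 genes (48 windows), and both strands were searched. The E-box core CAGCTG, which is a special case of CANNTG, occurred in 47.9% of the muscle windows and in 16.3% of all 32851 windows. Any CANNTG occurred in 83.3% and 72.3%. The CArG box occurred in 12.5% of the muscle windows against 1.63% of all, the MEF2 box in 12.5% against 3.19%, and TATAAA in 27.1% against 13.6%. The MEF2 box was searched only in the strict form YTAWWWWTAR (Y is C or T, W is A or T, R is A or G). The Myog window had no match to it, and looser forms were not counted. At the level of genes, 21 of the 42 had a CAGCTG, among them Chrna1, Chrng, Pygm and Tnnt2 with 2 in a single window. These are counts of letters in the window and say nothing of binding. No window was found for Myf6, Tnni2, Pax3, Actn3, Myod1, Tcap, Myom2, Tnnt3, Neb, Chrnd and Cacng1.

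Muscle transcripts were present at the end of chondrogenic culture and became scarcer at each early step in osteogenic medium. Summed without logs, the 53 genes made up 0.0448% of a D7 library, 0.0179% at D8, 0.00806% at D10 and 0.00968% at D28. The D7 libraries held 10208 to 13470 equalized reads of them, the D8 libraries 3773 to 5420, the D10 libraries 1809 to 2317 and the D28 libraries 2187 to 2751. The D10 and D28 sums overlapped, and the genes with the 3 highest D28 means in that sum were Tnni2, Trim63 and Actn3, described below.

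At D8, 26 of the 50 genes that passed the filter were called lower than at D7 and 0 higher, beside 3.81% lower and 3.23% higher of all genes tested. The number lower was 16 without D8 replicate 1, the library of that time point in which 32 of the 50 had their lowest value. From D8 to D10, 25 were lower and 0 higher, beside 5.58% and 4.08% of all genes. From D10 to D28, 19 were lower and 3 higher, beside 13.7% and 13.8%, and without D10 replicate 3 the number higher was 5. Over the whole osteogenic phase, D28 against D7, 42 were lower and 0 higher, beside 8.66% and 8.63%. For the 3 counts of 0 in limma, an unadjusted p under 0.05 with a higher value was found for 0 genes at D8, 1 from D8 to D10 and 0 for D28 against D7, and the study's own rule of fold change and unadjusted p gave 0 in each. Because the genes were chosen in view of these comparisons, nothing is read from the distance between the counts and the background.

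The median log2 fold change of the 50 genes was -1.49 at D8 against D7, -1.26 at D10 against D8, -0.88 at D28 against D10 and -3.89 at D28 against D7. The same medians over all genes tested were 0.03, 0.00, -0.10 and -0.03. Many values at D10 and D28 rest on 3 reads or fewer, and with every value raised to the highest 3-read level of any library (2.87) the medians of the muscle genes became -1.47, -1.10, -0.36 and -3.04. Among the 42 genes lower at D28, the median share of the fall in deposited log2 values already reached was 38.3% at D8 and 71.3% at D10, and 6 had a lower mean at D10 than at D28.

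**Figure D1:**
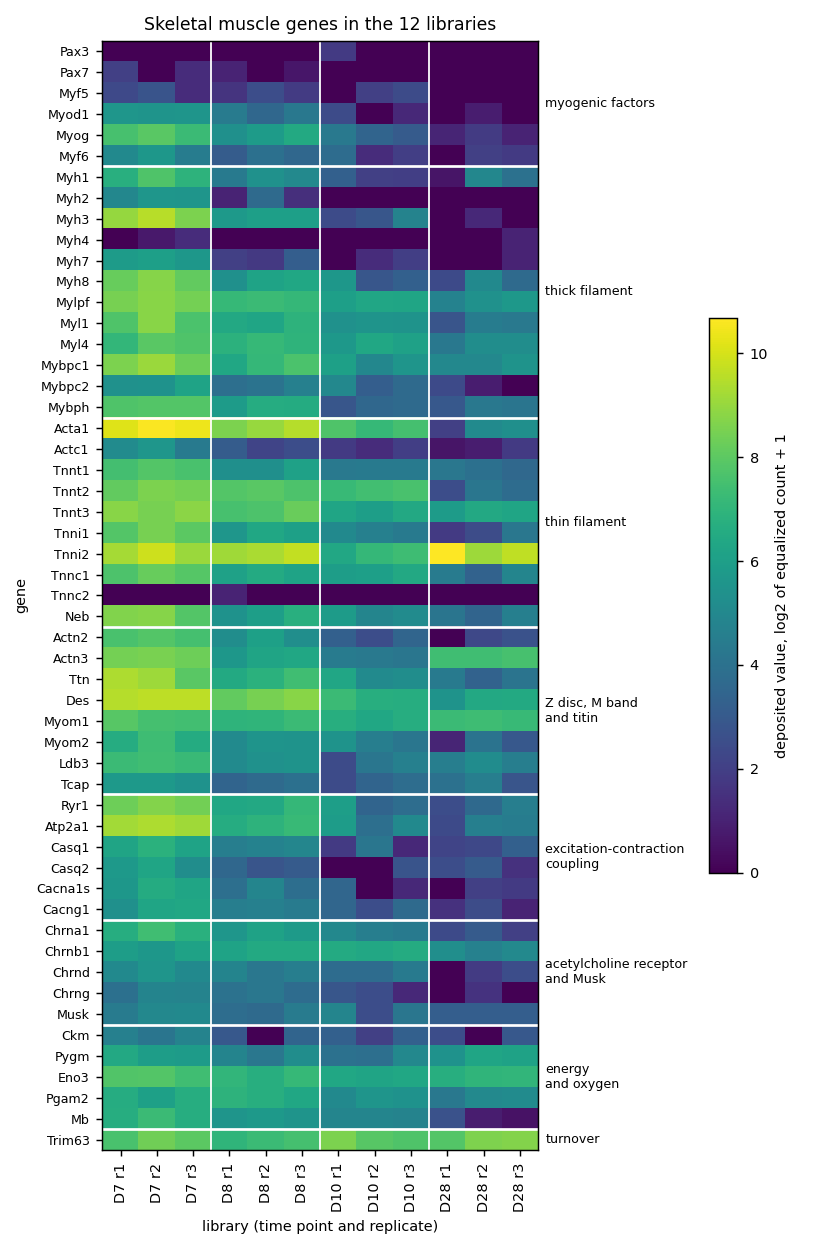
Deposited log2 value of each of the 53 genes (rows, by subgroup) in each of the 12 libraries (columns, by time point and replicate). Most rows darken from D7 to D10 and D28, while Tnni2, Actn3, Pygm, Myom1, Eno3 and Trim63 stay or turn bright again at D28.

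Among the myogenic factors, Myog (chromosome 1, 134289989 to 134292548), the factor of terminal differentiation, stood at 7.58, 7.93 and 7.29 at D7, at 5.37, 5.85 and 6.50 at D8, at 4.31, 3.43 and 3.07 at D10 and at 1.12, 1.84 and 1.06 at D28. No neighbouring time points overlapped, and it was 1 of 6 genes called lower at every step, together with Myh3, Actn2, Ttn, Cacng1 and Chrna1. Its log2 fold change from D7 to D28 was -6.26 (standard error 0.41), and -4.72 with low values raised to 2.87. With low values raised, the step from D10 to D28 was -0.73 for Myog, -0.64 for Myh3, -0.33 for Actn2 and -0.49 for Cacng1.

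Myod1 (chromosome 7, 46376474 to 46379099), which commits cells to the muscle lineage, stood at 5.59, 5.54 and 5.56 at D7 and at 4.43, 3.55 and 4.29 at D8. It read 2.44, 0.00 and 1.22 at D10 and 0.00, 0.87 and 0.00 at D28. Every library of D10 and D28 held at most 3 reads of it, so D28 was at least 6.45-fold lower than D7. Myf6, the factor of late fibre differentiation, stood at 5.05, 5.66 and 4.49 at D7, at 3.10, 3.95 and 3.55 at D8, at 3.76, 1.37 and 1.97 at D10 and at 0.00, 2.03 and 1.81 at D28. The D8 and D10 values overlapped, and only D28 against D7 was called, at -3.79 (standard error 0.66), and -2.19 with low values raised.

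The factors of undifferentiated precursors were near the limit of detection. Myf5 stood at 2.37, 2.79 and 1.37 at D7, at 1.62, 2.52 and 1.87 at D8, at 0.00, 2.03 and 2.44 at D10 and at 0 in all D28 libraries. No value was above 2.87, so no fold is given. Its call at D28 against D7 rested on a few reads and was lost with a pseudocount of 4, without D7 replicate 1, without D7 replicate 2 and when low values were raised. Pax7, the satellite cell factor, read 2.03, 0.00 and 1.37 at D7, 1.06, 0.00 and 0.66 at D8, and 0 at D10 and D28. Pax3 was at 0 in 11 libraries and at 1.81, the level of a single read, in D10 replicate 1. Pax3, Pax7, Myh4 and Tnnc2 were the 4 genes of the set with at most 3 reads in every library. Per kilobase at D7, Myog stood at 131 ± 29.4 (SD, n = 3), above the ranges of Myf6 (27.2 ± 11.2) and Myod1 (24.9 ± 0.470), which overlapped, and all were above Myf5 (1.87 ± 1.05).

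**Figure D2:**
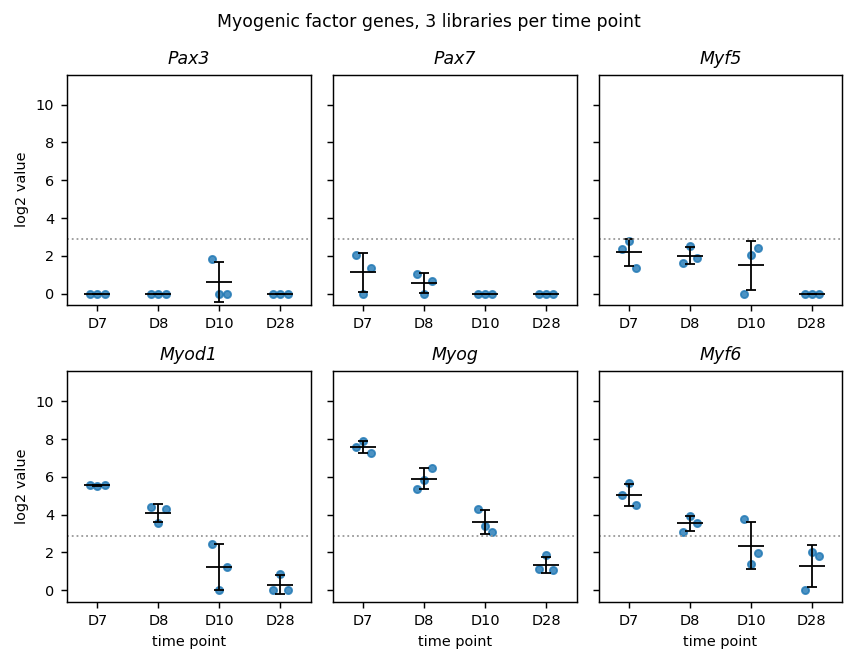
Deposited log2 value (vertical axis) of the 6 myogenic factor genes at each time point, with a point per library, the mean and the SD of 3 libraries, and a dotted line at 2.87, the highest 3-read level. Myog, Myod1 and Myf6 are above the line at D7 and at or below it at D28, while Pax3, Pax7 and Myf5 lie below it throughout.

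In the thick filament, all 11 genes that passed the filter were lower at D28 than at D7, with a median log2 fold change of -3.31 with low values raised. Myh2, Myh3 and Myh7 held at most 3 reads in every D28 library, and the log2 fold changes of the other 8, as fitted, lay between -4.62 and -2.66. Myh3 (chromosome 11, 67078300 to 67102291), the embryonic myosin heavy chain, stood at 8.98, 9.53 and 8.57 at D7, at 5.72, 6.01 and 6.01 at D8, at 2.44, 2.84 and 4.79 at D10, and at 0.00, 1.22 and 0.00 at D28. The time points did not overlap, and D28 was at least 71.3-fold lower than D7. Mylpf, the fast regulatory light chain, stood at 8.50, 8.78 and 8.45 at D7, at 7.14, 7.27 and 7.11 at D8, at 6.04, 6.31 and 6.28 at D10, and at 4.72, 5.38 and 5.69 at D28. It was lower at each time point than at the one before without overlap, and its log2 fold change was -3.31 (standard error 0.23) from D7 to D28.

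The heavy chains differed in level at D7. Myh3, the embryonic form, stood at 89.8 ± 30.2 reads per kilobase (SD, n = 3), and Myh8, the perinatal form, at 53.7 ± 13.0, with overlapping ranges. Below them came Myh1, the fast IIx form, at 23.8 ± 9.49, without overlap with Myh8. Myh7, the slow form that heart muscle shares, followed at 9.12 ± 1.20, and Myh2, the fast IIa form, at 6.82 ± 1.62, with ranges that nearly touched. Myh4, the fast IIb form, was at 0.125 ± 0.132. At D8 Myh8 (10.6 ± 3.56) and Myh3 (9.87 ± 1.12) overlapped, and at D28 Myh8 (2.63 ± 2.35) and Myh1 (2.46 ± 2.38) had the highest means, with ranges that overlapped each other. The D28 values of Myh1 came from replicates 2 and 3 (log2 values 4.93 and 4.00), while replicate 1 stood at 0.58.

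Myh3, Myh2, Myh1, Myh4 and Myh8 lie side by side in that order on chromosome 11 between 67078300 and 67308634. Reads of near-identical stretches can be lost or shared among them. Of all 59-base windows of the transcript, 22.5% were found in another gene for Myh1, 22.2% for Myh2, 18.1% for Myh8, 15.2% for Myh4 and 3.25% for Myh3, and 19.0% for Myh7 on chromosome 14, where the other gene was Myh6. The order of these genes is uncertain to that extent.

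**Figure D3:**
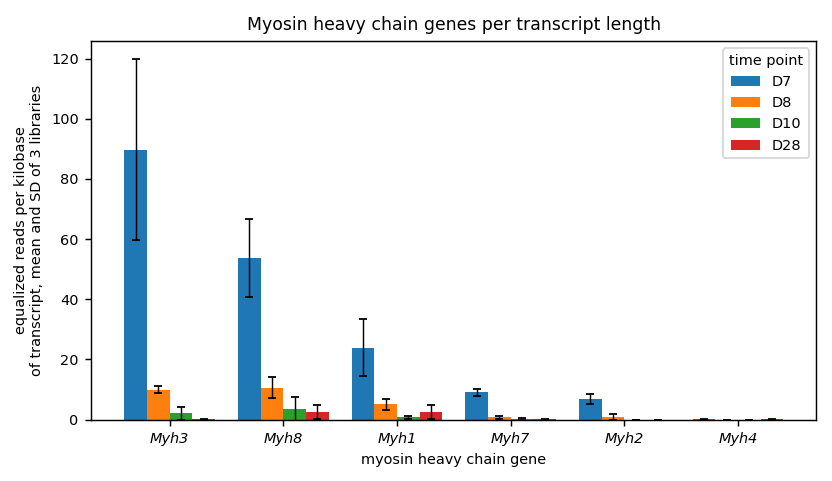
Equalized reads per kilobase of transcript (vertical axis, linear, from 0) of 6 myosin heavy chain genes at each time point, as the mean with the SD of 3 libraries. The embryonic Myh3 (89.8) and the perinatal Myh8 (53.7) are highest at D7, and the bars of D10 and D28 are near 0.

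The light chain genes and the myosin-binding proteins went the same way at different rates. Myl1, the fast essential light chain, had a log2 fold change of -4.17 from D7 to D28, with 21.0% of its windows also in a pseudogene. Myl4, the atrial and embryonic light chain, had one of -2.66, and among the thick filament genes it had the smallest change at D8 (-0.60, not called). Mybpc1, the slow myosin-binding protein C, had a log2 fold change of -3.50 from D7 to D28, and the fast Mybpc2 one of -4.59 (-2.81 with low values raised), while Mybph had means of 7.80 at D7 and 3.38 at D10. Mybph shares 49.9% of its exon bases with Adora1 on the opposite strand, and whether reads were counted by strand is not given in the sources used here. Adora1 stood at 7.65 ± 0.26 at D7, 3.68 ± 0.44 at D10 and 9.11 ± 0.51 (SD, n = 3) at D28, whereas Mybph stood at 3.80 ± 0.73 at D28.

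In the thin filament, 8 of the 9 genes that passed the filter were lower at D28 than at D7 (median -3.93, and -3.73 with low values raised), and Tnni2 was the exception. Acta1 (chromosome 8, 123891769 to 123894751), skeletal alpha-actin, stood at 10.17, 10.62 and 10.39 at D7, at 8.58, 9.02 and 9.48 at D8, at 7.75, 7.17 and 7.53 at D10, and at 2.03, 5.12 and 5.33 at D28. The D28 libraries lay far below the D10 ones (log2 fold change -3.32, standard error 0.59), and replicate 1 was the lowest of them. The log2 fold change from D7 to D28 was -6.23 (standard error 0.59). Per kilobase at D7, Acta1 (936 ± 144) stood above Actc1, the cardiac actin of developing fibres (22.8 ± 9.49), without overlap.

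Troponin isoforms took different courses. Tnnt2, the cardiac and embryonic troponin T, stood at 8.11, 8.57 and 8.46 at D7, at 7.81, 7.93 and 7.71 at D8, at 7.19, 7.44 and 7.61 at D10, and at 2.52, 4.19 and 3.77 at D28. Its differences at D8 (-0.56) and D10 (-0.40) were not called, and the last step was -3.92 (standard error 0.32). By contrast, Tnnt1, the slow troponin T, had most of its difference at D8 (-2.08) and D10 (-1.20), and -0.46 between D10 and D28. Tnnt3, the fast form, stood at 6.28, 5.98 and 6.43 at D10 and at 5.85, 6.44 and 6.26 at D28, with a log2 fold change of -0.05 (standard error 0.22) for that step. Per kilobase, Tnnt3 (387 ± 46.6) was above Tnnt2 (279 ± 44.9) and Tnnt2 above Tnnt1 (190 ± 22.5) at D7, and at D28 Tnnt3 remained at 67.4 ± 13.6, above Tnnt1 (13.6 ± 3.19) and Tnnt2 (9.62 ± 5.27), which overlapped.

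Tnni2 (chromosome 7, 142441808 to 142444410), the fast troponin I, did not follow its partners. It stood at 9.25, 9.88 and 9.07 at D7, at 9.14, 9.32 and 9.71 at D8, at 6.42, 7.12 and 7.37 at D10, and at 10.68, 9.13 and 9.67 at D28. The D10 libraries were below all others, and the D7, D8 and D28 values overlapped. Its log2 fold change was -2.42 (standard error 0.33) from D8 to D10 and 2.86 (standard error 0.33) from D10 to D28. Tnni1, the slow troponin I, stood at 1.81, 2.48 and 4.22 at D28 after 7.83, 8.50 and 7.98 at D7. Per kilobase, Tnni2 at D28 (1307 ± 733) was the highest of the 53 genes, and the library with the largest value was replicate 1, the one with the lowest Acta1.

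Tnnc1, the slow and cardiac troponin C, had log2 fold changes of -1.64 at D8 against D7 and -1.92 from D10 to D28, with -0.12 between. Tnnc2, the fast troponin C, was at 0 in 11 libraries and at 1.06 in D8 replicate 1, although Tnni2 and Tnnt3, with which it forms the fast complex, were abundant. In the annotation, 74.0% of its exon bases lie opposite exons of Ube2c, a mitotic ubiquitin-conjugating enzyme gene that stood at 8.65 ± 0.22 at D7 and 5.86 ± 0.57 (SD, n = 3) at D28, and the part of this overlap in the Tnnc2 values was not tested. Neb, the giant nebulin along the thin filament, had a log2 fold change of -4.32 from D7 to D28, with calls at D8 (-2.34) and from D10 to D28 (-1.22).

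In the Z disc, M band and titin subgroup, 6 of 8 genes were lower at D28 than at D7, with a median of -2.98. Des, the intermediate filament desmin, stood at 9.47, 9.63 and 9.63 at D7, at 8.12, 8.49 and 8.76 at D8, at 7.26, 6.69 and 6.67 at D10, and at 5.48, 6.45 and 6.50 at D28. It was lower at each time point without overlap, and the last step (-0.73) was not called. Actn2, the alpha-actinin of all fibres and of heart, moved most as fitted. It stood at 7.62, 7.81 and 7.53 at D7, at 5.22, 6.08 and 5.26 at D8, at 3.26, 2.50 and 3.49 at D10, and at 0.00, 2.32 and 2.68 at D28. The D10 and D28 ranges overlapped, and the log2 fold change from D7 to D28 was -5.99 (standard error 0.56), and -4.78 with low values raised. Ttn, the titin spring, had a log2 fold change of -4.86 over the same span. It was the same with low values raised, where it exceeded that of Actn2. Myom2 had one of -4.13 (-3.55 with low values raised).

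Actn3 (chromosome 19, 4861216 to 4877909), the alpha-actinin of fast fibres, came back at D28. It stood at 8.44, 8.54 and 8.32 at D7, at 5.67, 6.22 and 6.38 at D8, at 4.45, 4.30 and 4.21 at D10, and at 7.42, 7.39 and 7.57 at D28. The time points did not overlap, and D28 lay between D7 and D8. Its log2 fold change was -1.77 (standard error 0.22) from D8 to D10 and 3.14 (standard error 0.22) from D10 to D28, which left it at -0.97 against D7. Per kilobase at D28, Actn3 (60.8 ± 4.22) was above Actn2 (1.04 ± 0.932), compared with 119.5 ± 9.12 and 66.7 ± 6.59 at D7.

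Myom1, the M band protein myomesin, changed little, with 7.91, 7.51 and 7.43 at D7, 6.93, 6.97 and 7.29 at D8, 6.68, 6.37 and 6.64 at D10 and 7.26, 7.37 and 7.20 at D28. None of its 4 comparisons was called, and its log2 fold change was -0.34 (standard error 0.19) at D28 against D7. Ldb3, a Z disc adaptor, and Tcap, the titin cap, had D10 means of 3.76 and 3.23 and D28 means of 4.78 and 3.80, and these differences of 1.01 and 0.57 were not called. Both were lower at D28 than at D7 (-2.52 and -1.83).

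All 6 genes of excitation-contraction coupling were lower at D10 than at D8, as well as at D28 than at D7. Atp2a1 (chromosome 7, 126445858 to 126463108), the fast calcium pump SERCA1 of the sarcoplasmic reticulum, stood at 9.18, 9.37 and 9.14 at D7, at 6.62, 6.90 and 7.19 at D8, at 5.89, 3.91 and 5.05 at D10, and at 2.39, 4.62 and 4.49 at D28. Only D10 and D28 overlapped, and its log2 fold change from D7 to D28 was -5.39 (standard error 0.52). It shares 21.9% of its exon bases with Rabep2 on the other strand, which read between 8.98 and 9.22 on average at every time point. Over the same span the log2 fold change was -4.90 for Ryr1, the calcium release channel, -4.89 for Cacna1s, its voltage sensor, and -4.31 for Cacng1, a subunit of that sensor. With low values raised, those of Cacna1s and Cacng1 were -3.29 and -3.12. Of the calcium-storing calsequestrins, Casq1, the fast form, had -3.84 and Casq2, the slow and cardiac form, -3.38. From D10 to D28 only Cacng1 was called (-1.56), and 2 of the D10 libraries held at most 3 reads of Casq1, of Casq2 and of Cacna1s. With low values raised, the step from D8 to D10 was -1.42 for Casq1, -0.30 for Casq2 and -1.12 for Cacna1s.

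Among the acetylcholine receptor genes and Musk, 1 of 5 was lower at D8 than at D7 (Chrna1) and 2 at D10 than at D8 (Chrna1 and Chrng). From D10 to D28 the 4 receptor subunits were lower, with a subgroup median of -1.11 for that step with low values raised. Chrna1 (chromosome 2, 73563215 to 73580338), the acetylcholine-binding alpha subunit, stood at 6.66, 7.42 and 6.79 at D7, at 5.60, 6.14 and 5.80 at D8, at 4.96, 4.57 and 4.42 at D10, and at 2.39, 3.07 and 2.03 at D28. It was lower at each time point without overlap, and the log2 fold change from D7 to D28 was -4.46 (standard error 0.35). Chrnd, the delta subunit, had a log2 fold change of -2.53 from D10 to D28, and -1.11 with low values raised. Chrng, the fetal gamma subunit, held at most 3 reads in every library of D10 and D28, so no fold is given for that step, and D28 was at least 3.10-fold lower than D7. Musk, the kinase that clusters the receptor, had a log2 fold change of -1.65 from D7 to D28, with no single step called. That call was lost without D7 replicate 2 (-1.58) or D7 replicate 3 (-1.53).

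Chrnb1 (chromosome 11, 69784036 to 69795943), the beta subunit, took another course. It stood at 5.95, 5.64 and 6.16 at D7, at 6.20, 6.48 and 6.50 at D8, at 6.51, 6.39 and 6.58 at D10, and at 5.26, 4.71 and 5.02 at D28. The D8 libraries were all above D7, by 0.48 on average (standard error 0.25, not called), and the D28 libraries were below all others. Per kilobase at D7, Chrna1 (28.9 ± 8.69) and Chrnb1 (27.8 ± 5.03) overlapped, and by D10 Chrnb1 (41.4 ± 2.70) was above Chrna1 (5.58 ± 1.17). Chrne, the adult subunit that replaces Chrng, is listed at 0 in all libraries of D7, D10 and D28.

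Energy and oxygen genes split, with 3 of 5 lower at D28 than at D7. Mb, the oxygen store myoglobin, stood at 6.65, 7.26 and 6.66 at D7, at 5.57, 5.74 and 5.53 at D8, at 4.87, 4.87 and 4.79 at D10, and at 2.68, 0.87 and 0.50 at D28. It was lower at each time point without overlap, with its largest step from D10 to D28 (-3.49, standard error 0.46, and -1.97 with low values raised), and 27.6% of its exon bases lie opposite Gm49540. Eno3, the muscle enolase of glycolysis, stood at 7.78, 7.83 and 7.40 at D7, at 7.04, 6.71 and 7.16 at D8, at 6.36, 6.24 and 6.37 at D10, and at 6.71, 6.99 and 7.04 at D28. It was lowest at D10, overlapped between D8 and D28, and none of its comparisons was called (-0.76, standard error 0.20, for D28 against D7).

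Pygm (chromosome 19, 6384399 to 6398459), the glycogen phosphorylase of muscle, stood at 6.45, 5.95 and 5.86 at D7, at 4.80, 4.25 and 5.23 at D8, at 3.98, 3.91 and 4.99 at D10, and at 5.43, 6.28 and 6.16 at D28. Its log2 fold change was -1.33 (standard error 0.38) at D8 against D7 and 1.66 (standard error 0.38) from D10 to D28, and D28 overlapped D7. Pgam2, the muscle phosphoglycerate mutase, had log2 fold changes of 0.20 (standard error 0.30, not called) at D8 and -1.30 at D10. Ckm, the muscle creatine kinase, was low throughout, with at most 4.79 at D7, and stood at 0.00 in 1 library each of D8 and D28. Its call at D28 against D7 (-2.70) was lost without D28 replicate 2 (-1.79), D7 replicate 1 (-2.65) or D7 replicate 3 (-2.57), and the value was -1.63 with low values raised.

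Trim63, the ubiquitin ligase MuRF1 that tags sarcomere proteins, was the sole gene of the turnover subgroup. It stood at 7.61, 8.37 and 7.99 at D7, at 6.99, 7.29 and 7.53 at D8, at 8.56, 7.90 and 7.73 at D10, and at 7.83, 8.62 and 8.71 at D28. D8 was below D7 and D10 without overlap, and no comparison was called (0.40, standard error 0.27, for D28 against D7).

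**Figure D4:**
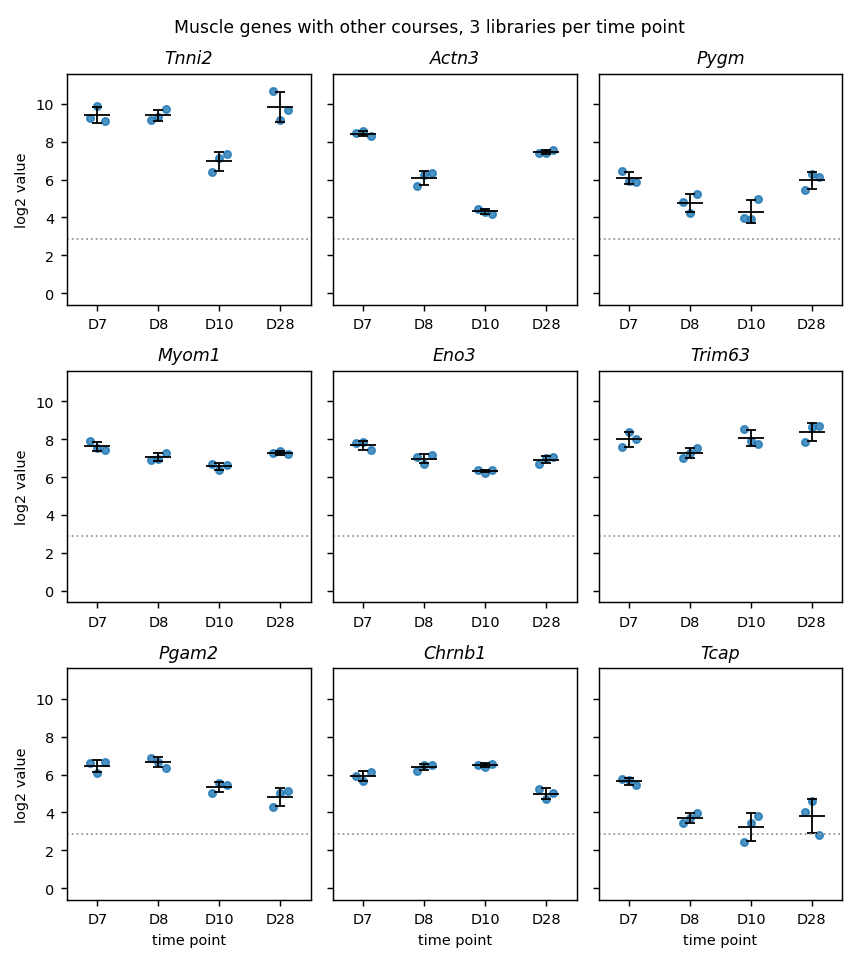
Deposited log2 value (vertical axis) of 9 muscle genes at each time point, with a point per library, the mean and the SD of 3 libraries, and a dotted line at 2.87. Tnni2, Actn3 and Pygm are lowest at D10 and higher at D28, Chrnb1 is lowest at D28, and Trim63 lies between 6.99 and 8.71 throughout.

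The courses of the 50 genes that passed the filter took several patterns of calls. The most frequent was lower at D8, lower again at D10 and not called from D10 to D28 (10 genes, among them Des, Atp2a1, Ryr1, Mybpc1 and Tnnt1). Another 7 were called lower from D10 to D28, at neither earlier step, and at D28 against D7, among them Acta1, Tnnt2, Mb and Chrnd. Chrnb1 had the same steps without the call at D28 against D7, and 6 genes were lower at every step. At D28 against D7, 8 of the 50 were not called, namely Pax7, Myom1, Eno3, Trim63, Actn3, Pygm, Tnni2 and Chrnb1.

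**Figure D5:**
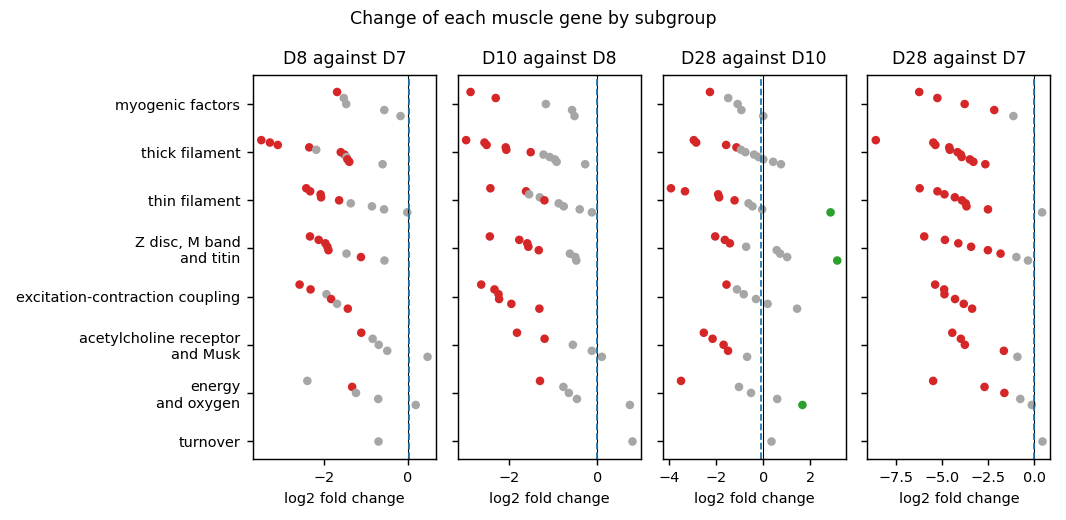
Log2 fold change as fitted, with low values not raised (horizontal axis), of each of the 50 genes that passed the filter, by subgroup, for 4 comparisons, with red for called lower, green for called higher and grey for not called, and a dashed line at the median of all genes tested. All 6 coupling genes are red at D10 against D8 and 4 of 5 receptor genes at D28 against D10, and the green points at D28 against D10 are Tnni2, Actn3 and Pygm.

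A further 127 muscle genes were listed by role, apart from the 53, and 126 were in the deposited values (Murc was not, and it is also known as Cavin4, which was). Of the 122 that passed the filter, 23 were lower and 3 higher at D8 than at D7, beside 3.81% and 3.23% of all genes, and 14 were lower and 4 higher at D10 than at D8, beside 5.58% and 4.08%. From D10 to D28, 19 were lower and 21 higher, shares near the 13.7% and 13.8% of all genes. At D28 against D7, 55 were lower and 9 higher, beside 8.66% and 8.63%. Their median log2 fold change for D28 against D7 was -0.99, or -0.52 with low values raised, against -0.03 over all genes. With a mean log2 value of at least 3 as the filter, 36 of the 89 genes left were lower at D28. The genes named below are those of each list with the largest change as fitted at D28 against D7 among the genes called. Their sizes are thus the extremes of lists that were themselves made with results of these data known. Their p-values are adjusted over all 17674 genes and are not independent evidence for the lists.

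Of 17 regulators and fusion genes tested, 8 were lower and 1 higher at D28 than at D7. Mymk, the myomaker that fuses myoblasts, fell from 6.67 ± 0.50 to 2.95 ± 0.42 (SD, n = 3; log2 fold change -3.72, adjusted p = 1.8e-06, limma). Rbm24, a splicing factor of muscle, fell with a log2 fold change of -2.80 (adjusted p = 0.003, limma), and Vgll2, a muscle cofactor, was at least 1.05-fold lower (adjusted p = 0.0026, limma), and both calls were lost with low values raised. Among 7 satellite cell surface genes, 3 were lower and 0 higher at D28 in limma, where 1 gene was higher at an unadjusted p under 0.05. Heyl was at least 2.65-fold lower (adjusted p = 0.00066) and Cdh15, M-cadherin, at least 1.74-fold (adjusted p = 0.0051), and Cxcr4 fell with a log2 fold change of -1.31 (adjusted p = 0.00064), all by limma. The calls of Heyl and Cdh15 were lost with low values raised, while Cxcr4, which many cell types express, stood at 8.88 ± 0.19 at D7.

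Of 17 other thick and thin filament genes tested, 8 were lower and 2 higher at D28 than at D7, with a median log2 fold change of -0.98. The higher ones, named after their values were seen, were Mylk2, a myosin light chain kinase (1.51), and Tmod1, which caps thin filaments (1.59). Lmod2, which nucleates and lengthens thin filaments, fell from 6.08 ± 0.27 to 0.68 ± 1.17 (SD, n = 3; log2 fold change -5.40, adjusted p = 4.6e-06, limma), and Lmod3 (-2.69, adjusted p = 0.012) and Tmod4 (-1.97, adjusted p = 0.0051) fell too. Without D28 replicate 3 the call of Lmod3 was lost, at -1.98. With low values raised, the log2 fold changes of Lmod2, Lmod3 and Tmod4 were -3.20, -1.22 and -1.24. Of 27 genes of the Z disc, M band and chaperones, 14 were lower and 2 higher, the latter being Nexn (1.87) and the chaperone Cryab (1.61), also named after their values were seen. Xirp1, an actin-binding repeat protein of growing myofibrils, fell to at least 13.4-fold below D7 (limma adjusted p = 1.3e-06), Csrp3, the muscle LIM protein, fell (-5.32, or -3.18 with low values raised, adjusted p = 2.1e-06), and Klhl40, which stabilises Lmod3 and nebulin, fell to at least 4.57-fold below (adjusted p = 2.5e-06).

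Of 17 triad and calcium genes, 9 were lower and 0 higher at D28. Sln, the peptide that restrains the calcium pump, fell with a log2 fold change of -3.51 (limma adjusted p = 0.001), as did Hrc, a calcium-binding protein of the sarcoplasmic reticulum (-3.40, adjusted p = 0.00052), and Scn4a, the muscle sodium channel (-2.78, adjusted p = 0.01). Without D28 replicate 3 the call of Scn4a was lost, at a log2 fold change of -2.27. With low values raised, those of Sln, Hrc and Scn4a were -2.13, -2.28 and -1.43. Of 10 membrane and costamere genes, 4 were lower and 0 higher, led by Cav3, the caveolin of muscle membranes (-3.02, limma adjusted p = 6.8e-05), Popdc3 (-2.49, adjusted p = 0.0088) and Dysf, the membrane repair protein dysferlin (-1.52, adjusted p = 2.5e-06). The call of Popdc3 was lost with low values raised and without D7 replicate 2, at a log2 fold change of -1.75. Of 6 turnover genes, 3 were lower and 0 higher. These were Trim72, the repair protein MG53 (-3.49, limma adjusted p = 8e-05), Trim55 (-2.78, adjusted p = 0.0082, lost with low values raised) and Trim54 (-2.36, adjusted p = 0.00031). In the triad, membrane and turnover lists, 1 gene each was higher in limma at an unadjusted p under 0.05.

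Of the 9 other muscle genes higher at D28, 3 belonged to energy metabolism and 1 to the neuromuscular junction. Of 14 energy genes, 4 were lower and 3 higher at D28 than at D7. Cox8b, a cytochrome oxidase subunit of muscle, heart and brown fat, rose from 3.55 ± 0.47 to 7.43 ± 0.56 (SD, n = 3; log2 fold change 3.88, adjusted p = 0.00061, limma), and Slc2a4, the insulin-dependent glucose transporter of muscle and fat, from 6.64 ± 0.26 to 9.15 ± 0.39 (2.51, adjusted p = 2.9e-06, limma). Art1, an ADP-ribosyltransferase, fell from 4.56 ± 0.67 to 0.97 ± 0.92 (SD, n = 3, adjusted p = 0.0011, limma). Its log2 fold change was -3.60 as fitted and -1.69 with low values raised. Beside Cox8b and Slc2a4, the 5 fat markers were all higher at D28, with a summed level of 3831 to 4492 equalized reads at D7, 838 to 1323 at D10 and 29058 to 38149 at D28. Over all libraries pooled, the highest means were those of Fabp4 (14.51 ± 0.18 at D28) and Plin1 (10.51 ± 0.36 at D28, SD, n = 3). That order need not hold at D28 alone. The part of fat cells in the rise of Cox8b, Slc2a4, Tnni2, Actn3 or Pygm was not tested. Nor was that of cartilage cells, whose markers are given below. Of 7 junction genes, 2 were lower and 1 higher at D28, where Rapsn, the receptor anchor rapsyn, rose (2.37, limma adjusted p = 0.00087), and Dok7 (-1.33, adjusted p = 0.0078) and Agrn (-1.02, adjusted p = 8.6e-06), which act on Musk, fell. The calls of Dok7 (-0.94 without D28 replicate 3) and Agrn (-0.93 without D7 replicate 1, -0.99 without D28 replicate 1 and -0.96 with median-of-ratios scaling) lay near the threshold and were lost in those settings.

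Markers of other cell types bear on the label of the set. Of 12 heart muscle markers 7 passed the filter, and Nkx2-5, Tbx20, Myl7, Nppa and Mybpc3 did not, with means of at most 0.79 at any time point. The heart list summed to 184 to 233 equalized reads at D7 and 503 to 659 at D28, most of it Tbx5 and Hand2, which limb mesenchyme expresses too, and 2 of its genes were higher and 0 lower at D28 than at D7. Myh6, the atrial myosin, held at most 3 reads in every library, and Tnni3, the cardiac troponin I, stood at 3.79 ± 1.11 at D7 and 2.88 ± 0.47 at D28 (SD, n = 3). Of 9 smooth muscle markers, 3 were higher and 1 lower at D28, with Smtn and Acta2 the most abundant (Acta2 at 9.27 ± 0.19 at D7 and 10.57 ± 0.10 at D28). Of 6 nerve and Schwann cell markers, 3 were lower and 1 higher at D28. S100b (which chondrocytes also express) and Tubb3 were the highest over all libraries, and Sox10 fell from 5.64 ± 0.47 to 1.96 ± 0.13 (SD, n = 3). The list as a whole summed to 4133 to 4708 equalized reads at D7 and to more at D28, 7393 to 10116.

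The cartilage list (10 markers, led in the mean over all libraries by Col2a1 and Acan) made up 11.1% of the D7 libraries, 11.5% at D8, 6.15% at D10 and 10.0% at D28. Much of that share was fixed by the equalization, since Col2a1 stood at the common top value of 20.92 in every library of D7, D8 and D28 and at 19.87 in every D10 library. Bone markers (9, led in the same mean by Spp1 and Col1a1) summed to 2.41%, 1.87%, 2.57% and 2.12%. Tendon markers (5, led in it by Fmod and Thbs4) summed to 0.265%, 0.194%, 0.0707% and 0.34%. Of 5 endothelial markers, 2 were higher and 0 lower at D8 than at D7, with sums of 17.8 to 45.0 equalized reads at D7 and 58.4 to 215 at D8. Over all 12 libraries pooled, the highest means were those of Pecam1 and Emcn, an order that need not hold at D8 alone. Of 5 blood cell markers only Ptprc and Csf1r passed the filter, with sums of 24.8 to 31.9 at D7, 8.75 to 25.7 at D10 and 28.8 to 258 at D28. At D8, 0 of the 10 cartilage markers were lower than at D7 in limma, also at an unadjusted p under 0.05, and at D10 against D8 6 of them and 3 of the 5 tendon markers were lower. The part of any of these cells in the muscle values was not tested.

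Most like the set in course were 10 genes outside it, ranked by Pearson correlation over the 12 libraries with the mean of the centred values of the 50 genes. They were Rgs4 (r = 0.980), Xirp1 (0.978), Crybg1 (0.977), Csrp2 (0.966), Usp29 (0.966), Lmod2 (0.965), Gbf1 (0.965), Thbs2 (0.965), BB218582 (0.961) and Col8a2 (0.961). Only Xirp1 and Lmod2 were on the lists of other muscle genes. The points share their libraries and the strong order of the time points, so any gene that declines steadily will rank high, and no p is given. Rgs4, for example, had means of 9.58, 8.06, 7.36 and 6.25 from D7 to D28.

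The equalization set the same largest value (20.92) and nearly the same sum in every library, so likeness in scale says nothing of the libraries. Each had 11055 to 12383 genes at 0, and 1 read was worth 0.50 to 1.81 on the log2 scale. The lowest correlation between replicates was 0.97, and at least 93.8% of tested genes differed between any replicates. Among the 50 muscle genes, D7 replicate 2 held the highest D7 value for 37 and D28 replicate 1 the lowest D28 value for 25, with median distances of 0.26 and -0.34 from the mean of their time point. Without D28 replicate 1, 43 muscle genes were lower at D28 than at D7, and without D7 replicate 1, 40.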

How the data were processed

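The authors deposited 1 table of log2 values, the log2 of the equalized HTSeq count plus 1, for 28244 gene symbols in 12 libraries, without pooling replicates. Per the submitters' processing notes and the study's methods, poly(A) libraries of a stranded kit were sequenced as paired 59-base reads, trimmed with Trimmomatic 0.36, aligned with HISAT2, annotated with Cufflinks, counted and equalized. The notes name GRCm38 and the methods hg38, and the gene symbols are those of mouse. The equalization gave all libraries nearly the same distribution, so original depths are not kept and low values stand on levels of whole reads. The floor of 3 reads covers counting error only.

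The members and all gene lists were chosen with earlier results of these data known. limma 3.58.1 (R 4.3.3) was run on the 17674 genes that reached 1 in 3 or more libraries, with a mean for each time point, a trend of the variance on expression and 8 residual degrees of freedom. Its two-sided p-values were adjusted by Benjamini-Hochberg across those genes. For genes at or under 3 reads throughout a time point, folds were computed with values raised to 2.87. The fit was also run on simulated data, only as a check of the code, and no result here rests on that run. Positions, overlaps, transcript lengths and 59-base windows came from GENCODE M21, and promoters from RefSeq. Python 3.11.15, pandas 2.3.3, numpy 2.4.6 and matplotlib 3.10.9 were used.

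Named in full were all myogenic factors. Per subgroup, the gene with the highest mean and the gene with the largest distance between time point means were named too. Of each list of other muscle genes, up to 3 were named, those with the largest change at D28 against D7 among the genes called. The 10 genes most like the set were also named. Actn3, Pygm, Tnnt2 and other genes with courses of their own were added after their values were seen. Alternatives covered filters, scaling, pseudocount, low values raised, the fold threshold, the rule of the study itself, blocking by replicate number and each library left out. No sequencing batch or date is given in the sources used here, so none was examined.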

Additional observations from a re-analysis of the deposited data

How the results depend on the processing

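The counts of muscle genes lower at D28 than at D7 (42 of the 50 that passed the filter) ranged from 40 to 43 with each library left out, and, apart from leaving out D8 replicate 1 or D10 replicate 3, only the fold threshold moved a count of these genes by over 1.5 times. With a log2 fold change of at least 2, 12 of them were lower at D8 against D7, 13 at D10 against D8 and 9 at D28 against D10. Of the other muscle genes, 1 was then higher and 7 lower at D8, 1 higher and 4 lower at D10 against D8, 9 higher and 8 lower at D28 against D10, and 3 higher and 36 lower at D28 against D7. With a mean log2 value of at least 3 as the filter, which tests fewer genes, 36 of the other muscle genes were lower at D28 against D7, and under the study's own rule 40 were lower at D8; the cause of the latter was not tested. With each library left out in turn, the 50 genes gave 16 to 31 lower at D8, 18 to 28 lower at D10 against D8, and 3 to 5 higher and 16 to 20 lower at D28 against D10. The other muscle genes gave 2 to 4 higher and 16 to 31 lower at D8, 3 to 4 higher and 10 to 18 lower at D10 against D8, 19 to 22 higher and 16 to 20 lower at D28 against D10, and 8 to 11 higher and 45 to 55 lower at D28 against D7.

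No pairing of samples by replicate number was seen, as the deviations of same-numbered libraries correlated between -0.058 and 0.067. With so few libraries at each time point, this cannot show whether same-numbered libraries shared an origin. With the replicate number as a block, 26, 26, 19 and 42 of the 50 genes were lower in the 4 comparisons in place of 26, 25, 19 and 42. Scaling by median of ratios moved the median of all genes from -0.10 to 0.01 at D28 against D10. Depth limits genes at 3 reads or fewer: of the 77 single genes followed for D28 against D7, 7 lost their call with low values raised, Myf5 among them at 0, and none changed direction.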
